A study of Mus musculus with 9 samples.

Results

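The extracellular proteases that cut bone matrix, and the inhibitors that hold them, were followed in osteocyte-like cells given organic or inorganic phosphate. The set comprised 10 genes, chosen by name: the tissue inhibitors of metalloproteinases *Timp1*, *Timp2*, *Timp3* and *Timp4*, the matrix metalloproteinases *Mmp2*, *Mmp3*, *Mmp13* and *Mmp14*, and the aggrecanase-type proteases *Adamts1* and *Adamts5*. All 10 were found among the 55416 genes of the count table, and 9 of them passed the filter on low counts that left 13679 genes for testing. *Mmp3* did not pass it. The cells were wild-type MC3T3-E1, a single murine calvarial pre-osteoblastic line, grown in osteogenic medium with BGP, ascorbic acid and dexamethasone. The sample labels give this medium for 27 days, whereas the methods of the study describe withdrawal of BGP for the last week. At day 27 wells received 4 mM β-glycerophosphate (BGP, an organic phosphate), 4 mM Na2HPO4/NaH2PO4 (NaHPO4, an inorganic phosphate) or no added phosphate (Control) for 16 h, and each condition gave 3 RNA sequencing libraries. The medium of all 3 conditions itself contains phosphate. No source used here says that replicates were grown as separate cultures, so that p-values measure the spread between these samples, which may be technical.

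MMPs are zinc-dependent proteases that are secreted as inactive precursors, or, like MMP14, sit in the cell membrane, and that cleave collagens and other matrix proteins. MMP14 together with TIMP2 activates the precursor of MMP2 at the cell surface. TIMPs bind the active site of MMPs, and TIMP3 in addition inhibits ADAMTS and ADAM proteases. In bone, osteoblasts and osteocytes use MMP13, MMP14 and MMP2 to remodel the collagenous matrix around them. RNA levels do not report the activation of these enzymes or the amount of protein, neither of which was measured by the libraries.

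Total counts lay between 21390839 and 28234404 per library, and replicates of a condition differed by more than sampling noise. Levels between libraries are given as CPM, the counts of a gene scaled to a common total per library, after TMM scaling, with SDs over 3 libraries. Differences are log2 fold changes (log2FC) from edgeR's quasi-likelihood test with the standard error (SE), and FDR denotes the p-value adjusted by the Benjamini-Hochberg method over the 13679 tested genes. A gene was called when its FDR was below 0.05, and a DEG also had an absolute log2FC above 0.5. BGP and NaHPO4 were compared with the same Control libraries. All 12 osteoblast and osteocyte markers examined passed the filter. Their summed level was 55457 to 59198 CPM in Control, 54212 to 57831 CPM in BGP and 49493 to 52757 CPM in NaHPO4, and *Col1a1* made up most of it. Of the 12 markers 2 were called higher in BGP against Control, *Dmp1* (log2FC 2.86) and *Phex* (0.26). In NaHPO4 against Control 5 were called lower and 1 higher, *Dmp1* (2.19). The lower ones were *Sost* (-1.68, at a mean of 1.01 CPM), *Col1a1* (-0.22), *Alpl* (-0.21), *Bglap* (-0.15) and *Bglap2* (-0.14). Another 6 calls were higher in BGP than in NaHPO4, including *Dmp1* and *Sost*. Of all tested genes 2.53%, 7.38% and 5.38% were called in these 3 comparisons. The part of these shifts in the results below was not tested. Of the markers of other cell types, the 6 chondrocyte markers summed to 248 to 306 CPM in Control, 339.8 to 446 CPM in BGP and 185 to 264 CPM in NaHPO4. Most of this was *Col2a1* (142 to 403 CPM), and *Sox9* had 34.4 to 43.3 CPM. The other 4 had a mean under 1 CPM, among them *Acan*, which encodes aggrecan (at most 0.0451 CPM), and *Matn1*, at 0. The part of this list in the results below was not tested. The 5 endothelial markers summed to at most 2.56 CPM, with *Kdr* and *Tie1* at 0 counts in every library. Of the adipocyte markers *Cidec* was at 0 and *Fabp4* had 9.75 to 15.5 CPM, and of the muscle markers *Myog* was at 0 and *Des* had 7.32 to 10.1 CPM. Among 7 macrophage and osteoclast markers 6 had a mean under 1 CPM, and *Tyrobp* was at 0. The remaining one, *Ctsk*, which encodes cathepsin K, was lower with NaHPO4 (log2FC -0.20, SE 0.0333, FDR 8.43e-05).

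Of the 9 tested genes, *Timp1* was the one that changed with both phosphates, and it rose in both. BGP against Control gave 1 call among the 9 (11.1%), *Timp1*, where 2.53% of all tested genes were called (1.86% higher and 0.665% lower). NaHPO4 against Control gave 4 calls (44.4%), against 7.38% of all tested genes (3.43% higher and 3.95% lower): *Timp1* was higher, and *Timp4*, *Mmp2* and *Mmp14* were lower. In the direct comparison of BGP with NaHPO4 3 genes were called (33.3%), against 5.38% of all tested genes (3.33% higher and 2.05% lower), with *Mmp14* higher and *Timp1* and *Adamts5* lower in BGP. Most of these genes are highly expressed, and small differences are called more often at high counts. Among the 1982 tested genes with a mean of at least 100 CPM, which include 8 of the 9, the share called was 6.51%, 20.5% and 13.8% in the 3 comparisons. Of these 8 genes 1, 3 and 3 were called. *Timp1* was a DEG in each of the 3 comparisons, where 0.556%, 0.716% and 0.585% of all tested genes were DEGs, and the other 8 genes were not. Without Control replicate 1, Control replicate 2 or NaHPO4 replicate 1, *Timp4* became a second DEG in NaHPO4 against Control (log2FC -0.56, -0.62 and -0.55). The median log2FC of the 9 genes was 0.01 for BGP and -0.05 for NaHPO4 against Control, beside -0.0043 and 9.7e-05 over all tested genes.

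**Figure D1:**
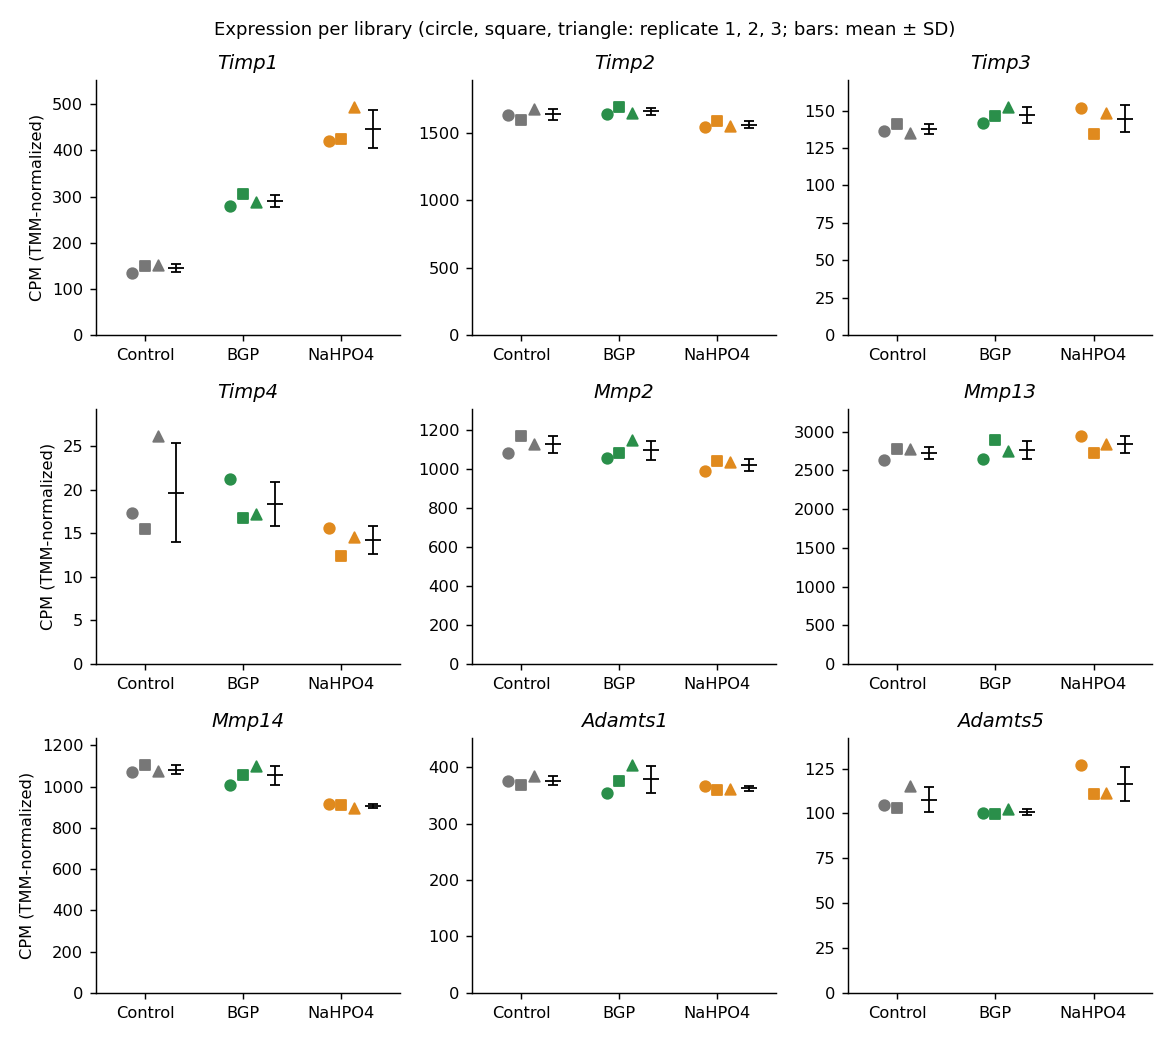
Expression of the 9 tested genes in each of the 9 libraries, in TMM-normalized CPM on axes that start at 0. Circles, squares and triangles are replicates 1, 2 and 3, and the bar is the mean with its SD. *Timp1* separates all 3 conditions, with 135 to 152 CPM in Control, 279 to 305 CPM in BGP and 420 to 494 CPM in NaHPO4, whereas for *Timp2*, *Timp3*, *Mmp13* and *Adamts1* the conditions lie close together.

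*Timp1* encodes a secreted inhibitor of most soluble MMPs. Its counts were 2883, 3432 and 3855 in Control, 6191, 6800 and 6702 in BGP, and 11526, 12081 and 12642 in NaHPO4. After scaling this was 135, 149 and 152 CPM in Control, 279, 305 and 288 CPM in BGP, and 419.5, 424 and 494 CPM in NaHPO4. Every BGP library lay above every Control library, and every NaHPO4 library above every BGP library. The mean rose from 145.3 ± 9.18 CPM to 290.9 ± 13.3 CPM with BGP and 445.7 ± 41.5 CPM with NaHPO4 (SD, n = 3). BGP increased *Timp1* 2.00-fold (log2FC 1.00, SE 0.0482, 95% interval 0.90 to 1.10, FDR 5.09e-18). NaHPO4 increased it 3.06-fold (log2FC 1.62, SE 0.0479, 95% interval 1.52 to 1.71, FDR 1.46e-24). Between the phosphates *Timp1* was 1.53-fold lower in BGP than in NaHPO4 (log2FC -0.62, SE 0.0459, 95% interval -0.71 to -0.52, FDR 4.84e-12). Among all 13679 tested genes *Timp1* ranked 9 by p-value in BGP against Control and 3 in NaHPO4 against Control. By size of increase it ranked 70 and 18. In such bulk libraries more RNA per cell and a larger share of cells that express the gene cannot be told apart.

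*Timp1* lies on the X chromosome (GRCm39 chrX:20736316-20740976, plus strand, 6 exons in the canonical transcript) within *Syn1*, a neuronal gene on the opposite strand. The exons of the 2 genes do not overlap (0 bases). *Syn1* itself had 446 to 522 counts in Control, 526 to 554 in BGP and 657 to 730 in NaHPO4. Its log2FC was 0.19 with BGP (SE 0.0722, FDR 0.214) and 0.26 with NaHPO4 (SE 0.0703, FDR 0.0157). Whether the counting used strand is not given in the sources used here, and the *Syn1* counts remained far below those of *Timp1*.

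*Timp2*, the inhibitor that with MMP14 forms the complex activating MMP2, was the most abundant TIMP per length and was not called in any comparison. It measured 1632, 1599 and 1681 CPM in Control, 1643, 1691 and 1644 CPM in BGP, and 1540.1, 1589 and 1549.9 CPM in NaHPO4. The NaHPO4 libraries lay below all others, by a small margin. The log2FC was 0.02 for BGP (95% interval -0.04 to 0.08, FDR 0.851), -0.07 for NaHPO4 (95% interval -0.13 to -0.01, FDR 0.173) and 0.09 for BGP against NaHPO4 (95% interval 0.03 to 0.15, FDR 0.0793). *Timp3*, which binds to the matrix and also inhibits ADAMTS proteases, was not called either. Its mean was 137.5 ± 3.38 CPM in Control, 147 ± 5.19 CPM in BGP and 145 ± 9.13 CPM in NaHPO4. The BGP libraries, from 142 to 152 CPM, lay above the Control libraries, from 135 to 141 CPM, with a log2FC of 0.10 (95% interval 0.01 to 0.18, FDR 0.266). The NaHPO4 libraries, from 134 to 152 CPM, overlapped both.

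*Timp4*, the least abundant inhibitor per length, was called lower with NaHPO4, but the call was lost without either of 2 libraries and in another test. Its counts were 370, 357 and 664 in Control, 470, 372 and 399 in BGP and 429, 354 and 374 in NaHPO4. In CPM these were 17.3, 15.5 and 26.1, then 21.2, 16.7 and 17.1, then 15.6, 12.4 and 14.6. Control replicate 3 was higher than all other libraries, and the Control and NaHPO4 libraries overlapped. The log2FC of NaHPO4 against Control was -0.48 (SE 0.120, FDR 0.00869). Without Control replicate 3 it was -0.21 (FDR 0.301), without NaHPO4 replicate 2 it was -0.39 (FDR 0.076), and the DESeq2 test gave -0.47 (FDR 0.242). For BGP against Control the value was -0.11 (SE 0.119, FDR 0.76), and without Control replicate 3 it turned to 0.16. The gene lies inside *Syn2*, on the opposite strand, and 14.7% of its exon bases overlap *Syn2* exons. *Syn2* had 62 to 98 counts per library and was not called. *Timp3* lies in the same way within *Syn3*, which had at most 5 counts in a library.

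The promoters of 4 genes are shown because they cover the main patterns: *Timp1* rose with both phosphates, *Mmp14* and *Timp4* were called lower with NaHPO4, and *Mmp13* was not called while being the most abundant per length. RefSeq windows of 250 bases before to 50 bases after the start (its table is on GRCm38.p6) were found for 8 of the 10 genes, and each was placed on GRCm39 by an exact match. The 4 windows are chrX:20736155-20736454 (plus strand) for *Timp1*, chr6:115229117-115229416 (minus strand) for *Timp4*, chr14:54668805-54669104 (plus strand) for *Mmp14* and chr9:7272264-7272563 (plus strand) for *Mmp13*. The canonical transcripts of *Timp1* (20736351), *Timp4* (115229267) and *Mmp14* (54668878) start upstream of the RefSeq start, inside these windows. Positions below refer to the RefSeq start. The GGGCGG matches of *Mmp14* lie after its canonical start. In *Timp1* the GGGCGG match, TGAGTAA and the last AGGAAG likewise lie after the canonical start. Capitals mark matches, on either strand, to the AP-1 motif TGANTCA, to its variant form TGAGTAA, to the ETS core AGGAAG, to the RUNX motif AACCACA or to the SP1 box GGGCGG, and neighbouring matches may touch.
Timp1: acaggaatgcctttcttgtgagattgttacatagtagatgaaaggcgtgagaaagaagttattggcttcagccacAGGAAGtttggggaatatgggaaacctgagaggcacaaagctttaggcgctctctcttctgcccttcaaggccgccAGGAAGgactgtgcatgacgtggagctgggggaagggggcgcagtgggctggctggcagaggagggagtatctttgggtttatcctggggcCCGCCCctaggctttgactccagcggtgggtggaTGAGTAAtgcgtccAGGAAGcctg
Timp4: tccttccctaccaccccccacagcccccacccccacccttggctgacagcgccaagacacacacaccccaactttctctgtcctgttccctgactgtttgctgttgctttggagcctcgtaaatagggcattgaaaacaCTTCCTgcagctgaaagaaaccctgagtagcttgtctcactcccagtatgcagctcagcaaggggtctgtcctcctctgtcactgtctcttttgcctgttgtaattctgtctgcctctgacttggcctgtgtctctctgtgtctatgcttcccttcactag
Mmp14: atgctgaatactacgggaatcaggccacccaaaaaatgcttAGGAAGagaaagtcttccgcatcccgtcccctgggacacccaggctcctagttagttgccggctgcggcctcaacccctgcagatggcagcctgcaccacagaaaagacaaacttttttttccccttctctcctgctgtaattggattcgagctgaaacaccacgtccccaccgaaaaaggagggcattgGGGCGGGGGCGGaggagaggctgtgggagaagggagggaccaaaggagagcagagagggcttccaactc
Mmp13: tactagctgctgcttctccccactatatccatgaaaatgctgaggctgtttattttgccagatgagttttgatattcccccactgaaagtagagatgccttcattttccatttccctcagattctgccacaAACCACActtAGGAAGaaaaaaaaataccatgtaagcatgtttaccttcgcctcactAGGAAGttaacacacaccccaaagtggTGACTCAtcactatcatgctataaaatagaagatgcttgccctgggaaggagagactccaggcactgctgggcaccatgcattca
The *Timp1* window held AGGAAG at 3 places, 1 match to GGGCGG, and TGAGTAA beginning 26 bases after the RefSeq start. TGAGTAA occurred in 2.68% of all 32851 RefSeq windows of this length, AGGAAG in 35.4% and GGGCGG in 35.7%. The *Mmp13* window held TGACTCA 35 bases before the start (TGANTCA occurred in 7.81% of windows), AACCACA 119 bases before it (5.27% of windows) and AGGAAG at 2 places. *Mmp14* had GGGCGG at 2 adjoining places and AGGAAG at 1, and *Timp4* had AGGAAG at 1. A match describes letters, and whether a factor binds there was not measured.

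Among the proteases, *Mmp14* showed the clearest response. The gene encodes the membrane-anchored collagenase MT1-MMP, and its level fell with NaHPO4 and not detectably with BGP. It measured 1069, 1105 and 1074 CPM in Control, 1009, 1055 and 1099.7 CPM in BGP, and 916, 910.3 and 895 CPM in NaHPO4. All 3 NaHPO4 libraries lay below all others, while BGP and Control overlapped. The mean of 1083 ± 19.5 CPM in Control fell to 907 ± 10.6 CPM in NaHPO4 (SD, n = 3). This was a 1.19-fold decrease (log2FC -0.26, SE 0.032, 95% interval -0.32 to -0.19, FDR 3.95e-07). BGP differed from Control by -0.04 (95% interval -0.10 to 0.03, FDR 0.668). The difference between the phosphates was itself called, with *Mmp14* higher in BGP (log2FC 0.22, SE 0.032, FDR 1.25e-05).

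*Mmp2*, the gelatinase that MMP14 activates, moved the same way by less. It measured 1083, 1169 and 1129 CPM in Control, 1055, 1083 and 1148 CPM in BGP, and 987, 1041 and 1038 CPM in NaHPO4. The highest NaHPO4 library lay below the lowest Control library. The log2FC with NaHPO4 was -0.14 (SE 0.0342, 95% interval -0.21 to -0.07, FDR 0.0062), and without Control replicate 2 it was -0.11 (FDR 0.0553). BGP gave -0.04 against Control (95% interval -0.11 to 0.03, FDR 0.668), and the difference between BGP and NaHPO4, 0.10, was not called (SE 0.0343, FDR 0.0836).

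*Mmp13*, collagenase-3, had 56288 to 80900 counts per library and was not called in any comparison. It measured 2631, 2772 and 2774 CPM in Control, 2652, 2892 and 2750.3 CPM in BGP, and 2944.5, 2728 and 2844 CPM in NaHPO4. The 3 groups overlapped. The log2FC was 0.02 for BGP (95% interval -0.05 to 0.09, FDR 0.861) and 0.06 for NaHPO4 (95% interval -0.01 to 0.13, FDR 0.342). *Mmp3*, stromelysin-1, was close to absent from these libraries, with counts of 0, 2 and 0 in Control, 4, 0 and 0 in BGP and 0, 1 and 2 in NaHPO4. A count of 0 allows up to 3 counts in a library, or 0.106 to 0.140 CPM on total counts, for counting error only. No difference of *Mmp3* was detectable at this depth.

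*Adamts1* and *Adamts5*, neighbours on chromosome 16 that encode proteases of aggrecan and versican, were not called against Control. *Adamts1* had a mean of 376 ± 7.65 CPM in Control, 378 ± 24.6 CPM in BGP and 362 ± 4.22 CPM in NaHPO4. Its log2FC was 0.01 with BGP (95% interval -0.07 to 0.08, FDR 0.954) and -0.05 with NaHPO4 (95% interval -0.13 to 0.02, FDR 0.443). *Adamts5* measured 104.5, 103 and 116 CPM in Control, 100.1, 99.8 and 103 CPM in BGP, and 127, 111 and 112 CPM in NaHPO4. The BGP libraries were the lowest of the 9, NaHPO4 replicate 1 was the highest, and the NaHPO4 libraries overlapped Control. *Adamts5* was lower in BGP than in NaHPO4 (log2FC -0.21, SE 0.0464, FDR 0.00391), and without NaHPO4 replicate 1 the difference was -0.14 (FDR 0.0612). Against Control it differed by -0.10 with BGP (FDR 0.377) and by 0.11 with NaHPO4 (FDR 0.154), and without Control replicate 3 the latter was 0.17 (FDR 0.0327).

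**Figure D2:**
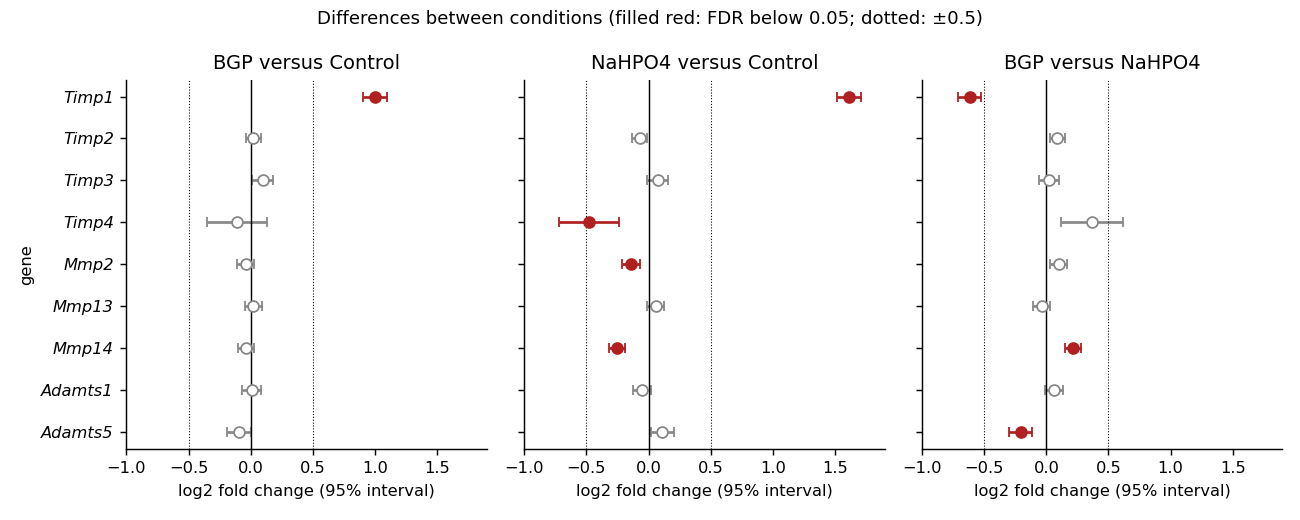
Log2 fold change of each tested gene in the 3 comparisons, with its 95% interval from the quasi-likelihood fit. Filled red points passed the FDR threshold and dotted lines stand at ±0.5. *Timp1* lies beyond 0.5 in each panel (1.00, 1.62 and -0.62), and the points of the other 8 genes lie within it.

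Libraries that do not overlap between 2 groups of 3 were seen for 3 of the 9 genes in BGP against Control (18.5% of all tested genes), for 5 in NaHPO4 against Control (23.2%) and for 6 in BGP against NaHPO4 (21.2%). In the last comparison these were *Timp1* and *Adamts5*, lower in BGP, and *Timp2*, *Timp4*, *Mmp2* and *Mmp14*, higher in BGP. The log2FC of *Timp4* there was 0.37 (SE 0.122, FDR 0.0717).

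To compare the genes with each other, CPM was divided by the length of all exons joined, in kilobases. In Control the order was *Mmp13* (1020 ± 30.6 CPM per kilobase), *Timp2* (367 ± 9.2), *Mmp2* (319 ± 12.2), *Mmp14* (176 ± 3.17), *Timp1* (74.2 ± 4.69), *Adamts1* (68.7 ± 1.40), *Timp3* (16.9 ± 0.415), *Adamts5* (9.85 ± 0.628), *Timp4* (2.54 ± 0.734) and *Mmp3* (0.0161 ± 0.0279). Neighbours in this order did not overlap in any library except *Timp1* (68.9 to 77.5) and *Adamts1* (67.3 to 70.1). In BGP *Timp1* reached 149 ± 6.82 CPM per kilobase, clear of *Adamts1* and below *Mmp14* (171 ± 7.33). In NaHPO4 it reached 228 ± 21.2, above *Mmp14* (147 ± 1.72). This last change of order depended on the length used: by the longest transcript of each gene *Timp1* stood at 243 and *Mmp14* at 263 CPM per kilobase in NaHPO4.

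**Figure D3:**
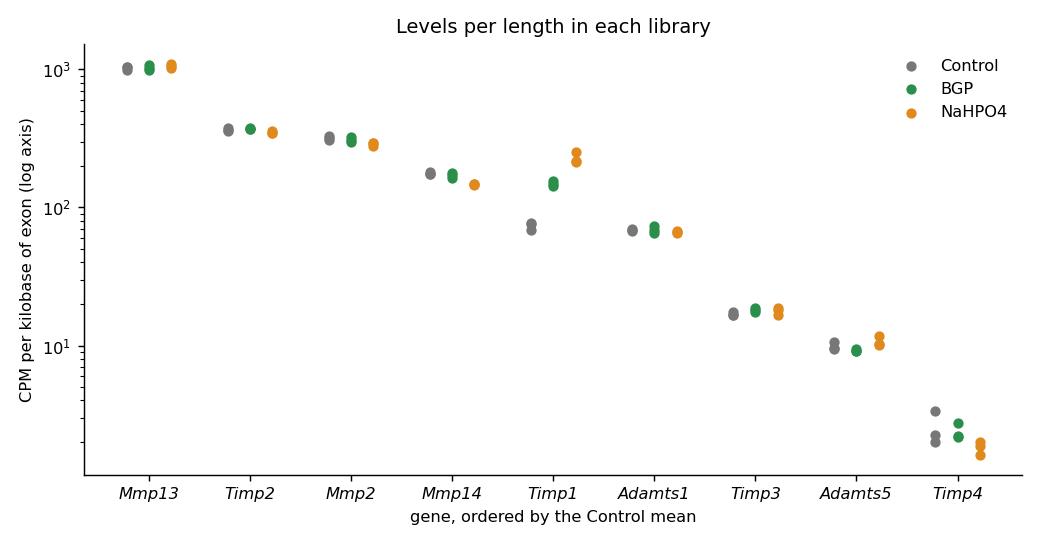
Level of each tested gene per kilobase of exon, on a logarithmic axis, with 1 point for each library and the conditions side by side. *Mmp13* is highest throughout at about 1020 to 1062 CPM per kilobase, and *Timp1* climbs from 74.2 in Control to 228 in NaHPO4 while *Adamts1*, next to it in Control, stays between 64.8 and 73.8.

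Summed over the 4 inhibitors, TIMP transcripts amounted to 460.5 ± 11.7 CPM per kilobase in Control, 541 ± 12.7 in BGP and 597 ± 20.4 in NaHPO4. *Timp1* made up 16.1 ± 0.841% of this sum in Control, 27.5 ± 0.622% in BGP and 38.1 ± 2.25% in NaHPO4, and most of the remainder was *Timp2*. The summed level of the 4 MMPs was 1514 ± 44.1 CPM per kilobase in Control, 1516 ± 54.4 in BGP and 1498 ± 33.6 in NaHPO4, with 67.3%, 68.2% and 70.9% of it from *Mmp13*. The ratio of summed TIMP to summed MMP levels was 0.304 ± 0.00942 in Control, 0.357 ± 0.00751 in BGP and 0.398 ± 0.0172 in NaHPO4. No library overlapped with another condition in this ratio. These sums follow *Timp1* and are given as a description, since the genes were not chosen independently of earlier results, and a transcript ratio is not a ratio of active proteins.

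**Figure D4:**
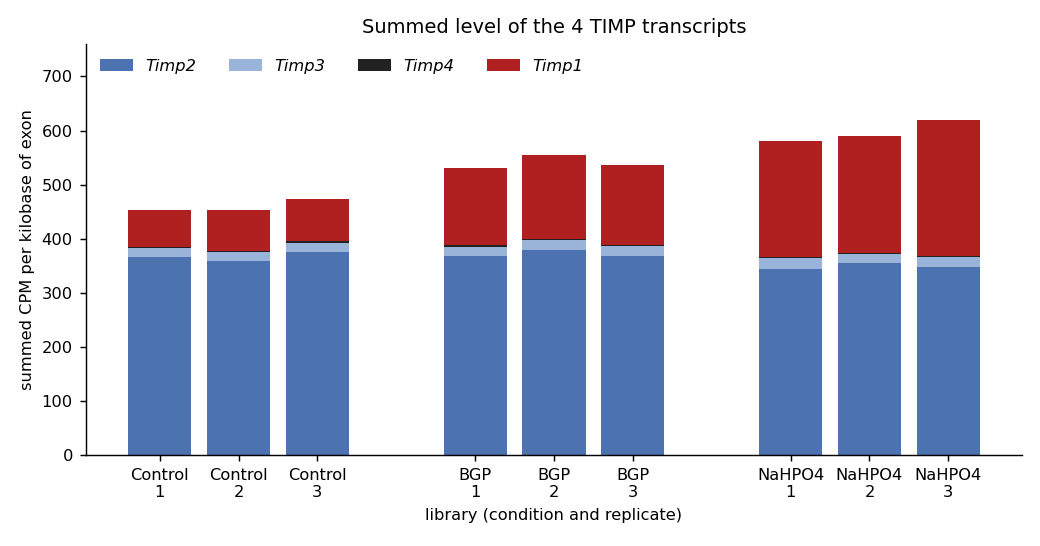
Stacked levels of the 4 TIMP transcripts in each library, in CPM per kilobase of exon on an axis that starts at 0. The *Timp2* segment stays between 345 and 379, while the *Timp1* segment at the top grows from 68.9 to 77.5 in Control to 214 to 252 in NaHPO4.

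The genes whose log2 CPM followed *Timp1* most closely over the 9 libraries, among 12078 other tested genes with a mean of at least 1 CPM, were *Spp1* (Pearson r = 0.987), *Lclat1* (0.981), *Atf6* (0.974), *Vcan* (0.971) and *Kpna1* (0.968). The 9 points come from 3 conditions, so that r is a description of them. *Spp1*, which encodes the matrix protein osteopontin, rose by 1.48 with BGP (FDR 3.42e-23) and by 1.97 with NaHPO4 (FDR 6.76e-27) on the log2 scale. *Vcan*, which encodes versican, a substrate of ADAMTS proteases, rose from 41.9 ± 3.26 CPM to 57.8 ± 4.34 CPM with BGP (log2FC 0.47, SE 0.0585, FDR 7.88e-07) and to 71.0 ± 4.53 CPM with NaHPO4 (log2FC 0.76, SE 0.0565, FDR 2.26e-12). Of the set itself, *Mmp14* had the lowest r with *Timp1* (-0.825), followed by *Mmp2* (-0.705).

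Beyond the set, 8 of 19 other MMP genes passed the filter. With NaHPO4 1 of these 8 was called, *Mmp11* or stromelysin-3, which fell by 0.29 on the log2 scale (SE 0.0543, FDR 0.000357). Between the phosphates *Mmp11* was higher (log2FC 0.20, SE 0.0548, FDR 0.0246) and *Mmp19* lower (log2FC -0.23, SE 0.0659, FDR 0.0345) in BGP than in NaHPO4. Limma did not call *Mmp11* there (FDR 0.0504), nor DESeq2 *Mmp19* (FDR 0.0637). Of 17 other ADAMTS genes 11 were tested, and *Adamts18* was called lower with NaHPO4 (log2FC -0.48, SE 0.0741, FDR 1.73e-05). Of 6 tested ADAMTS-like genes, which encode related proteins without a protease domain, 3 were lower with NaHPO4. These were *Papln* (log2FC -0.45, FDR 2.26e-07), *Adamtsl4* (-0.33, FDR 0.000227) and *Adamtsl5* (-0.20, FDR 0.0299, with 0.0506 by DESeq2). Of 8 tested ADAM genes *Adam12* was lower with NaHPO4 (log2FC -0.26, SE 0.0423, FDR 3.91e-05). In BGP against Control edgeR's quasi-likelihood test and DESeq2 called 0 genes in each of these 4 lists. At an unadjusted p below 0.05 there were 3 other MMP genes, 5 ADAMTS genes, 3 ADAMTS-like genes and 1 ADAM gene, and edgeR's likelihood ratio test called 1 other MMP and 1 ADAMTS gene. Over all tested genes the quasi-likelihood test called 2.53% with BGP, 7.38% with NaHPO4 and 5.38% between the phosphates.

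Genes that activate, restrain or clear these proteases moved in both directions. Of 19 tested, 1 was called with BGP, *Mrc2*, an endocytic collagen receptor (log2FC 0.22, SE 0.0432, FDR 0.00154), while DESeq2 called 0. With NaHPO4 1 was higher and 3 were lower. For comparison, 2.53% of all tested genes were called with BGP and 7.38% with NaHPO4. *Plau*, the urokinase that generates plasmin, rose from 14.3 ± 0.249 CPM to 18.5 ± 1.28 CPM (log2FC 0.37, SE 0.0811, FDR 0.00205). *Reck*, a membrane-anchored inhibitor of MMPs, was lower (log2FC -0.21, SE 0.0467, FDR 0.00268), as were *Spock2*, a matrix proteoglycan (-0.27, FDR 6.67e-07), and *Fap*, a membrane serine protease (-0.18, FDR 0.0282, with 0.0513 by DESeq2). *Plau* was lower in BGP than in NaHPO4 (log2FC -0.34, FDR 0.00676), whereas *Reck* (0.21, FDR 0.00406) and *Spock2* (0.19, FDR 0.000318) were higher.

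Among 16 tested matrix substrates 2 were called higher with BGP, *Vcan* and *Col2a1*, and 9 were called with NaHPO4, of which 7 were lower. The shares of all tested genes called were 2.53% and 7.38%. Among tested genes with a mean of at least 100 CPM they were 6.51% and 20.5%. DESeq2 called 1 and 5 in these comparisons, and limma 2 and 5. The fibrillar collagen genes *Col1a1* (log2FC -0.22, FDR 2.47e-05), *Col1a2* (-0.17, FDR 0.00018) and *Col3a1* (-0.18, FDR 0.0055) were lower with NaHPO4. Limma did not call *Col1a2* (FDR 0.0604), nor DESeq2 *Col3a1* (FDR 0.192). *Col2a1*, which encodes the main cartilage collagen, had a log2FC of 0.50 with BGP (FDR 0.000754) and of -0.45 with NaHPO4 (FDR 0.00141). Both calls against Control were lost with DESeq2 (FDR 0.316 and 0.235), and the Control and NaHPO4 libraries overlapped. The difference between the 2 phosphates was called (0.95, FDR 4.96e-09), also by DESeq2 (FDR 0.000615). *Bcan*, which encodes brevican and was expressed at a low level, had a log2FC of -1.25 with NaHPO4 (SE 0.391, FDR 0.0419), which limma did not call (FDR 0.0575).

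**Figure D5:**
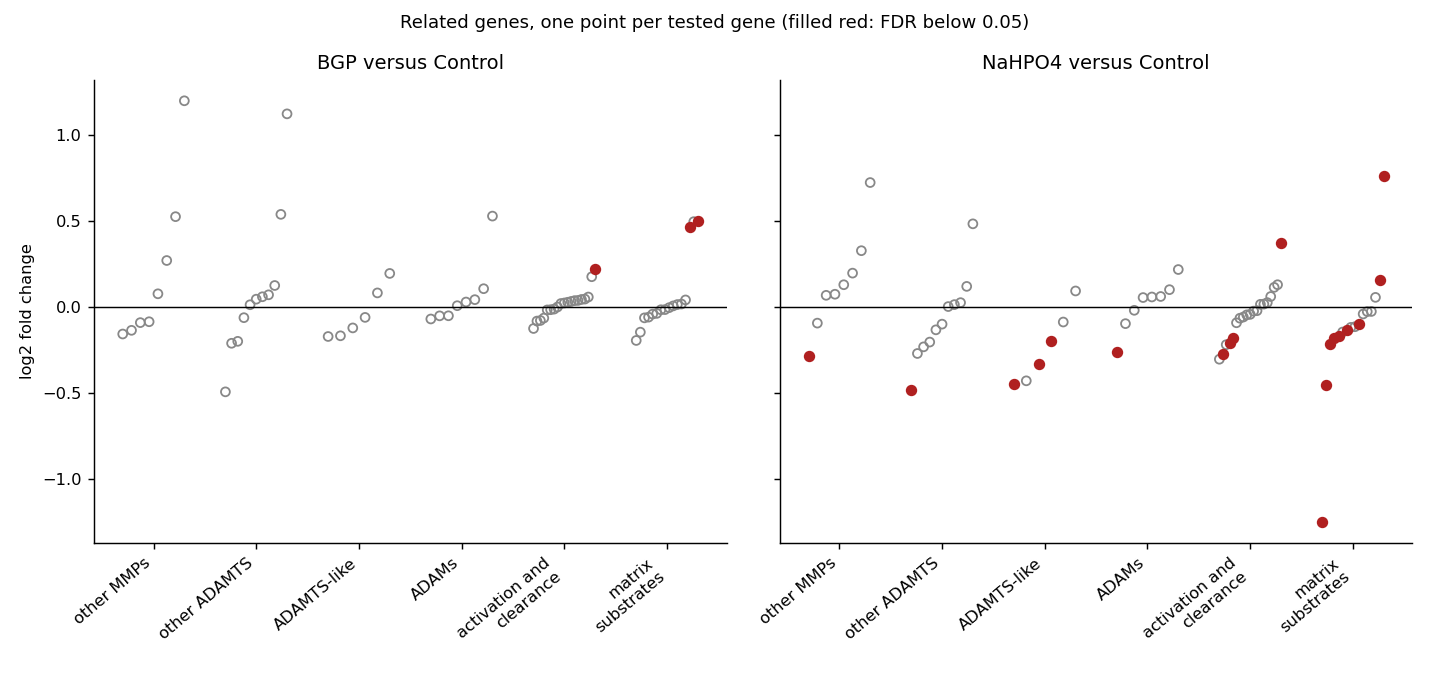
Log2 fold change of each tested gene in 6 lists of related genes, against Control, with 1 point for each gene and filled red points past the FDR threshold. With BGP 0 of the other MMP, ADAMTS, ADAMTS-like and ADAM genes are red, and with NaHPO4 the red points of these 4 lists lie below 0, as do 7 of the 9 red matrix substrates.

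Factors of the AP-1, ETS and RUNX families, which are known to act on promoters of MMP and TIMP genes, and *Egr1* were examined as a last list of 13 genes, all of them tested. With BGP 4 were called higher and 1 lower, where 1.86% and 0.665% of all tested genes were. With NaHPO4 2 were called higher and 3 lower, where 3.43% and 3.95% of all tested genes were. *Etv4*, an ETS factor, rose with both, from 4.64 ± 0.576 CPM to 17.0 ± 1.83 CPM with BGP (log2FC 1.87, SE 0.123, FDR 6.01e-14) and to 14.8 ± 2.39 CPM with NaHPO4 (log2FC 1.66, SE 0.123, FDR 2.22e-12). *Fosl1*, an AP-1 subunit of low abundance, rose with NaHPO4 (log2FC 1.21, SE 0.252, FDR 0.00133). *Egr1* rose with BGP (log2FC 0.89, FDR 4.99e-18) and fell with NaHPO4 (log2FC -0.28, FDR 2.7e-05), and *Junb* rose with BGP (log2FC 0.42, FDR 1.62e-06). Their relation to the promoters shown above was not tested.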

How the data were processed

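The authors deposited a table of counts, whole-number read counts per Ensembl gene and library without normalization. Per the paper's methods, paired reads of stranded poly(A) libraries were checked with FastQC and mapped in the AIR software to GRCm39 with an Ensembl annotation. The aligner, the counting program and its use of strand are not given in the sources used here, so reads of overlapping genes may have been assigned to either. The authors also deposited a TMM-scaled signal, each library's counts multiplied by 1 factor (1.01 to 1.32), used here only in an alternative. Both tables hold 55416 genes.

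Groups came from the sample labels. Genes were filtered with filterByExpr (count minimum 10), scaled by TMM and fitted over all 9 libraries with glmQLFit and glmQLFTest of edgeR 4.0.16. Alternatives were DESeq2 1.42.0, limma 3.58.1 on log2(value + 1), edgeR's likelihood ratio test, other scalings, filters, thresholds and samples, a block for the replicate number, and leaving out every library in turn. The procedure was tested on simulated data. CPM was divided by exon length (GENCODE annotation of GRCm39, in which 13631 of 13679 tested genes were found). R 4.3.3 and Python 3.11.15 were used.

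The genes of the set and all gene lists were chosen with earlier results of these data known. Named were all 10 genes of the set, from each other list up to 6 called genes by largest absolute log2FC (1 of which is not reported here), the host genes *Syn1*, *Syn2* and *Syn3*, and the 5 genes most correlated with *Timp1*.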

Additional observations from a re-analysis of the deposited data

How the results depend on the processing

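*Timp1* was called in the same direction in all 3 comparisons under each of the 19 alternatives, with log2FC from 0.95 to 1.03 for BGP against Control, 1.54 to 1.66 for NaHPO4 against Control and -0.66 to -0.54 for BGP against NaHPO4. *Mmp14* likewise kept its 2 calls (-0.26 to -0.23 and 0.19 to 0.25). Without 1 library in turn the number of genes of the set that were called was 1 in BGP against Control and ranged from 3 to 4 in NaHPO4 against Control and from 2 to 4 in BGP against NaHPO4. The number of DEGs in NaHPO4 against Control ranged from 1 to 2, with *Timp4* as the second without Control replicate 1, Control replicate 2 or NaHPO4 replicate 1. With no filter on low counts 6 genes instead of 3 were called in BGP against NaHPO4. With the longest transcript as length, 2 genes, *Timp1* and *Mmp14*, exchanged ranks in NaHPO4.

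Directions reversed only for values that were not called. With 1 library left out in turn, values in BGP against Control ranged from -0.25 to 0.16 for *Timp4*, -0.0111 to 0.0496 for *Mmp13* and -0.0424 to 0.0514 for *Adamts1*, and in BGP against NaHPO4 from -0.028 to 0.0579 for *Timp3*. In BGP against Control the reversed values were *Timp4* (0.16 without Control replicate 3), *Mmp13* (-0.00426 without Control replicate 1 and -0.0111 without BGP replicate 2) and *Adamts1* (-0.00684 without Control replicate 2 and -0.0424 without BGP replicate 3). In BGP against NaHPO4 it was *Timp3* (-0.00391 with total counts, -0.00321 without BGP replicate 3 and -0.028 without NaHPO4 replicate 2). The cause was not tested.

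Deviations of libraries from their group mean correlated weakly, at -0.0092 to 0.0426 over 9 pairs with the same replicate number (mean 0.0127). Over 18 pairs with different numbers the correlations were -0.0456 to 0.0239 (mean -0.0063). The same-number pairs of Control and NaHPO4 had the highest values (0.0301, 0.0426 and 0.0409), and 7 of 9 libraries correlated best with their own number. With the replicate number as a block, 1, 4 and 4 genes were called in the 3 comparisons, the added one being *Timp4* in BGP against NaHPO4 (0.37, FDR 0.0297), and no other call changed. Depth limits *Mmp3*, and 3 libraries per condition limit the small differences of *Timp4*, *Mmp2* and *Adamts5*.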
